A study of Mus musculus with 2 samples.

Results

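Cells with transcripts of both Foxf1 and Isl1 were described in mouse chimeras at E8.5, as a candidate for splanchnic mesoderm. The members were the cells with at least 2 spliced unique molecular identifiers (UMIs, each counting 1 captured transcript) of Foxf1 and at least 2 of Isl1, fewer than 2 of Tbx4, fewer than 3 of Epcam, fewer than 3 of Tnnt2 and 0 of Cdh5, with under 0.5% of their spliced UMIs from the globin genes Hba-x, Hbb-bh1 and Hbb-y. This gave 284 of 18233 cells. They made up 152 of 8981 tdTom+ cells (1.69%, exact 95% interval 1.44 to 1.98%) and 132 of 9252 tdTom- cells (1.43%, 1.2 to 1.69%). The cells were picked by these measured counts, so the levels of the rule's 9 genes describe the choice. Counts over all genes below include them, and those called are named or counted there.

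The chimeras were made by injecting tdTomato-labelled male embryonic stem cells without functional Gata1 (Gata1-) into wildtype C57BL/6 blastocysts. All injected cells came from 1 clone, which carried a 38-bp frameshift in exon 4 of Gata1, and tdTomato was expressed from the ROSA26 locus. Gata1 lies on the X chromosome, so a male cell carries a single copy (the sample labels write Gata1-/-). The cells of 6 whole embryos were pooled and sorted by flow cytometry, and each fraction gave 1 10X library, so the tdTom+ library holds Gata1- cells and the tdTom- library wildtype host cells of the same embryos. The age label reads E8.5 for the tdTom+ and E8.6 for the tdTom- sample. With 1 library per fraction there was no replicate, no test of the fractions was possible, and every interval given is a 95% interval for counting error only. Members had medians of 18961 (tdTom+) and 18049 (tdTom-) spliced UMIs, against 17572 and 15969.5 in all other cells. Of the 18 barcodes found in both libraries, 0 were members. Scrublet, which calls droplets that hold more than 1 cell, marked 2 tdTom+ and 5 tdTom- members (1.32% and 3.79%, against 4.2% and 5.6% of the libraries), and these were kept. Levels of 0 among the members allow up to 3 UMIs, which is 0.945 counts per 1000000 spliced UMIs (CPM) in tdTom+ and 1.2 in tdTom- members.

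The lateral plate mesoderm splits into a somatic and a splanchnic layer, of which the splanchnic layer lies against the endoderm and supplies the smooth muscle and connective tissue of gut and lung as well as progenitors of the heart. Foxf1 is a forkhead transcription factor of this layer that responds to hedgehog ligands sent by the endoderm. Isl1 is a LIM-homeodomain factor of the second heart field, the progenitor pool behind the first heart tube, and is also active in posterior mesoderm of the hindlimb field. Osr1, a zinc-finger factor, marks lateral plate and intermediate mesoderm, including the posterior second heart field, and Hand2 is a basic helix-loop-helix factor of lateral plate and heart. In the GRCm38 assembly Foxf1 lies at chr8:121084386-121088154, Isl1 at chr13:116298270-116309688, Osr1 at chr12:9574442-9581500 and Hand2 at chr8:57320983-57324517.

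Osr1 and Hand2, which the rule did not use, were detected far more often in members than in neural cells. At least 1 Osr1 UMI was present in 69.7% of tdTom+ and 62.1% of tdTom- members and at least 1 Hand2 UMI in 74.3% of tdTom+ and 66.7% of tdTom- members. With each cell thinned to 5000 UMIs, the shares were 41.4% and 38.6% for Osr1 and 32.9% and 39.4% for Hand2, so no order of the fractions is read from them. Free RNA in droplets can give such UMIs in any cell, so the same shares were taken in neural cells (Sox2 at least 3, Pax6 and Sox1 at least 1 together, T and Cdh5 at 0, Epcam below 3), which should lack these genes and had medians of 18670.5 and 16783 UMIs. There Osr1 was found in 1.84% of tdTom+ and 2.66% of tdTom- cells and Hand2 in 5.53% of tdTom+ and 3.61% of tdTom- cells. Over the summed UMIs of each group, Osr1 stood at 141 and 129 CPM in tdTom+ and tdTom- members, against 4.74 and 4.91 in neural cells, and Hand2 at 102 and 95.1 CPM against 5.42 and 4.49. Nearer cells share these genes. Hand2 had log2 ratios of -0.12 and 0.18 to the heart muscle cells described below, where Osr1 had 3.99 and 2.75. Against Foxf1-positive cells without Isl1, neither gene passed the limits used below in both libraries.

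The 4 marker genes varied widely from cell to cell, and the fractions overlapped throughout. Foxf1 ranged from 2 to 16 UMIs per tdTom+ member with a median of 4, and from 2 to 14 with a median of 4 per tdTom- member. Isl1 ranged from 2 to 8 UMIs per tdTom+ member with a median of 2, and from 2 to 16 with a median of 2 per tdTom- member. Osr1 ranged from 0 to 15 UMIs per tdTom+ member with a median of 2, and from 0 to 23 with a median of 1 per tdTom- member. For Foxf1 and Isl1 the lower end is the limit of the rule. Hand2 ranged from 0 to 13 UMIs per tdTom+ member with a median of 2, and from 0 to 10 with a median of 1 per tdTom- member. Per cell, the median level was 72 (tdTom+) and 59.2 (tdTom-) CPM for Osr1, with an upper quartile of 222 and 151. Members with exactly 2 UMIs of Foxf1 or of Isl1, just inside the limits, numbered 103 in tdTom+ and 83 in tdTom- cells and held 133 and 127 CPM of Osr1. Cells with both genes that fell just outside, with 1 UMI of either, numbered 244 and 218 and held 123 and 147 CPM of Osr1. The limits thus cut through a continuous range of counts.

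**Figure D1:**
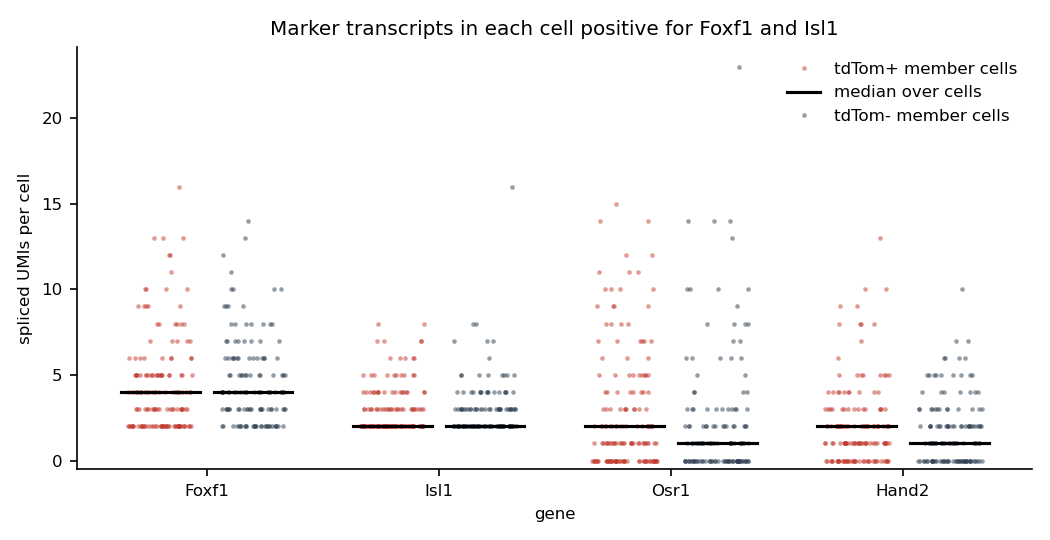
Spliced UMIs (y axis) of Foxf1, Isl1, Osr1 and Hand2 (x axis) in each of the 152 tdTom+ (red) and 132 tdTom- (dark) member cells, 1 point per cell with a small sideways shift, and the median over cells as a black bar. Foxf1 and Isl1 start at the limit of 2 UMIs, while Osr1 and Hand2 reach down to 0 in both fractions.

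Markers of other lineages were low, with exceptions. The 8 markers of splanchnic mesoderm (Foxf1, Isl1, Osr1, Hand2, Gata4, Gata6, Foxf2 and Tbx5) summed to 775 and 785 CPM in tdTom+ and tdTom- members, of which the rule fixed the part of Foxf1 and Isl1. The other 6 summed to 418 and 378 CPM, against 18.8 and 17.7 in neural cells. In the heart muscle cells described below they were higher than in members, at 569 and 530 CPM. The rule capped Epcam, Tnnt2, Cdh5 and 3 globin genes, so these are left out of the sums that follow. The caps also removed cells rich in those genes. Low sums of endoderm, surface ectoderm, cardiac muscle, endothelial and erythroid markers were thus partly set by the rule. The other 6 markers of endoderm summed to 5.99 and 7.59 CPM and the other 5 of surface ectoderm to 2.52 and 1.2. Without Tnnt2 and Myl7, which gate the heart muscle cells (at least 10 UMIs of each), the other 6 cardiac muscle markers stood at 51 and 52 CPM, against 69.5 and 52.7 in neural cells and 17083 and 21642 in heart muscle cells. The other 6 endothelial markers summed to 102 and 110.3 CPM, nearly all from Kdr, a VEGF receptor, at 37.5 and 54 CPM and Etv2, the ETS factor that opens the blood vessel programme, at 62.1 and 54.4 CPM. Of the later vessel genes, Pecam1 was at 1.26 and 0.799, Tie1 at 0.315 and 0 and Emcn at 0 and 0.40 CPM. The other 4 erythroid markers summed to 27.1 and 45.6 CPM in members and 60.04 and 182 in neural cells. With the 3 capped globin genes, the erythroid sums were 239 and 780.1 CPM in members and 662 and 3487 in neural cells. The part of free globin RNA in these sums was not tested. The 6 neural markers summed to 18.6 and 35.6 CPM, the 5 of neural crest to 18.9 and 33.6, the 6 of paraxial mesoderm (with Aldh1a2) to 119 and 137 and the 4 of intermediate mesoderm (with Osr1) to 164 and 157. The sums of 3 other lists were high, and the part of their cell types in the members was not tested. The 3 allantois markers other than Tbx4 summed to 268 and 253 CPM through Pitx1, the 4 of primitive streak to 246 and 255 through Cdx2, and the 5 of amnion and extraembryonic mesoderm to 366 and 370.1 through Hand1 and Bmp4.

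The members held a posterior Hox profile. Hox genes are ordered along their clusters by paralog group, and higher numbers are expressed in more posterior parts of the trunk. The 15 genes of groups 5 to 9 summed to 616 and 681 CPM in tdTom+ and tdTom- members, against 576 and 637 in Foxf1-positive cells without Isl1, 98.3 and 209.6 in Isl1-positive cells without Foxf1 and 105 and 93.8 in neural cells. Hoxa7 stood at 101 and 97.1 CPM, Hoxb8 at 96.1 and 110.3, Hoxa9 at 108 and 124 and Hoxd9 at 71.5 and 73.5. Hoxa9 was at 67.1 and 79.3 CPM in the Foxf1-positive cells without Isl1. Groups 1 to 4 summed to 384 and 439 CPM. The profile fell off after Hoxa10, which was at 40.6 and 26.4 CPM, and groups 10 to 13 together came to 83.2 and 61.9 CPM, with Hoxa11 at 14.5 and 10.4 and Hoxa13 at 4.73 and 7.59. Cells with Foxf1 and at least 2 UMIs of Tbx4, the T-box gene of allantois and hindlimb, reached 275 and 213 CPM for groups 10 to 13. Genes that go with posterior identity, singled out after their values were seen, were also higher than in neural cells. Cdx2 stood at 208 and 222 CPM and Cdx4 at 307 and 370.1, caudal factors that act upstream of Hox genes. Pitx1, a homeobox gene of hindlimb and posterior lateral plate, stood at 248 and 235. Against Foxf1-positive cells without Isl1, Cdx2 and Pitx1 did not pass the limits used below in both libraries (mean log2 ratio 0.87 for Pitx1).

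**Figure D2:**
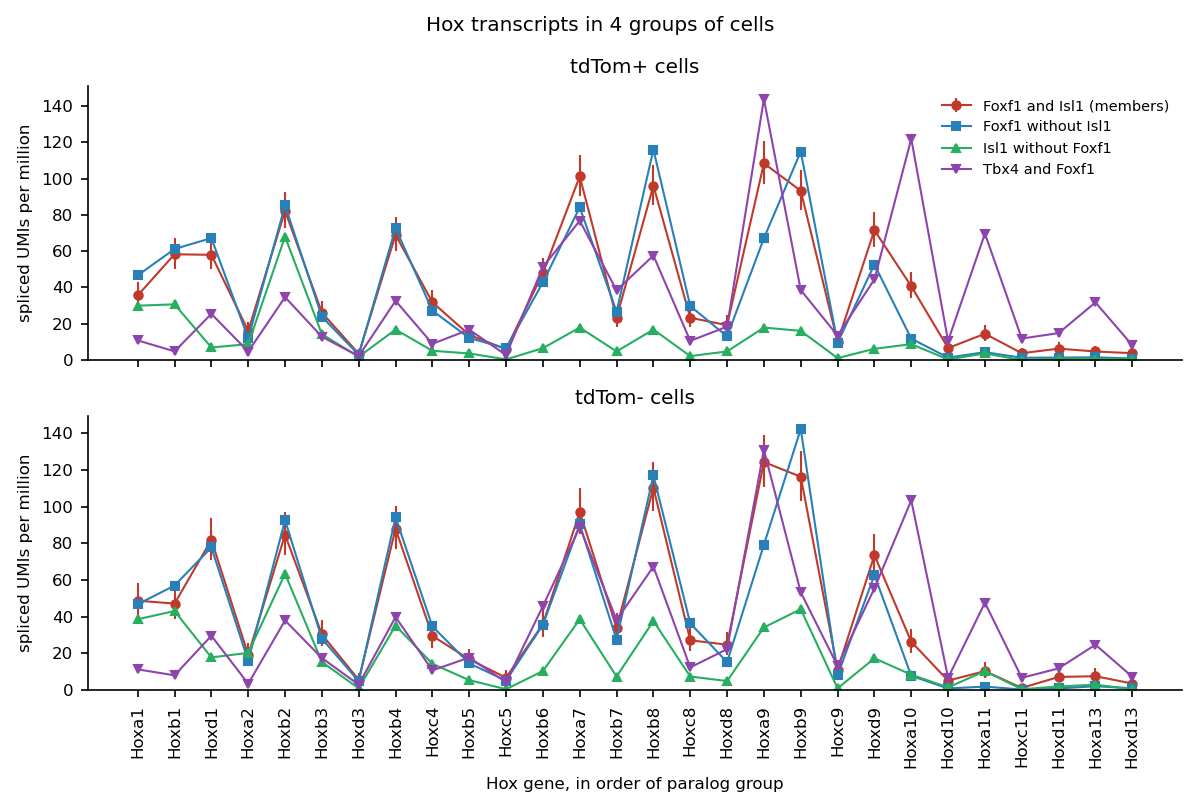
Summed level (y axis, spliced UMIs scaled to CPM) of each Hox gene that reached 5 CPM in any group (x axis, by paralog group) in tdTom+ cells (top) and tdTom- cells (bottom), for members (red circles, bars are 95% counting intervals), Foxf1-positive cells without Isl1 (blue squares), Isl1-positive cells without Foxf1 (green triangles) and Tbx4- and Foxf1-positive cells (purple). For most genes up to group 9 the members lie near the Foxf1-positive cells and above the Isl1-positive cells, and at Hoxa10 between the Foxf1-positive and the Tbx4-positive cells.

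The profile was not shared by all members. UMIs of Hox groups 5 to 9 ranged from 0 to 61 per tdTom+ member with a median of 11, and from 0 to 51 with a median of 11.5 per tdTom- member. No UMI of these 15 genes was found in 26 of 152 tdTom+ members (17.1%, 11.5 to 24.1) and 23 of 132 tdTom- members (17.4%, 11.4 to 25). From 1 to 5 UMIs were found in 20 of 152 tdTom+ members (13.2%, 8.23 to 19.6) and 26 of 132 tdTom- members (19.7%, 13.3 to 27.5), and 6 or more in 106 of 152 tdTom+ members (69.7%, 61.8 to 76.9) and 83 of 132 tdTom- members (62.9%, 54 to 71.1). The members without such UMIs were not shallower by much, with medians of 18447 and 16646 spliced UMIs, against 18552.5 and 18806 in those with 6 or more. The bands are ranges of a count and not cell types, and the shares depend on depth. After thinning each cell to 5000 UMIs, 27.6% of tdTom+ and 27.3% of tdTom- members had none, 48% and 46.2% had 1 to 5, and 24.3% and 26.5% had 6 or more.

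Members without UMIs of Hox groups 5 to 9 carried more Aldh1a2, Tbx5 and Wnt2 than those with 6 or more. Among all 7036 genes with at least 20 UMIs over both bands in each library, 103 (1.46%) were at least 2-fold higher in the members without Hox UMIs, with a counting interval that excluded 0 in both libraries, and 155 (2.2%) were so in the members with 6 or more. The Hox genes that set the bands count among the latter through the split, and without the 15 there were 144 of 7025 (2.05%). Of the 26 listed regulators of splanchnic and lateral plate mesoderm, 20 could be compared, 7 were higher without Hox UMIs and 4 with them. Of 28 listed second heart field genes, 15 could be compared, of which 5 were higher without Hox UMIs and 2 with them. Aldh1a2, which makes retinoic acid, stood at 312 and 429 CPM in tdTom+ and tdTom- members without Hox UMIs and at 18.6 and 20.7 in those with 6 or more. Tbx5, a T-box factor of the posterior second heart field and of heart and lung, was at 58.3 and 31.5 against 2.72 and 3.76 CPM. Wnt2, a ligand of lung and inflow tract mesoderm, was at 119 and 102 against 9.98 and 11.3 CPM.

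Nr2f1, Arg1, Dach1, Cdx4 and other genes outside the lists were named after their values were seen. The direction was the same for Sfrp5, a secreted Wnt inhibitor of the sinus venosus (107 and 82.4 against 1.81 and 5.64 CPM), for the heart factors Gata4 (80.4 and 67.9 against 20.4 and 8.77), Gata6 (269 and 252 against 72.1 and 42) and Mef2c (86.4 and 43.6 against 9.07 and 7.51), and for Meis1, a Hox cofactor (193 and 165 against 23.1 and 25.7). The nuclear receptors Nr2f1 and Nr2f2 were at 125 and 194 and at 187 and 228 CPM without Hox UMIs, and at 8.16 and 13.8 and at 28.6 and 26.9 with them. Nkx2-5, the core cardiac homeobox gene, was low in both bands, at 18.1 and 9.7 against 2.72 and 0.626 CPM. Myl7, an atrial myosin light chain, was at 203 and 218 CPM without Hox UMIs, against 31.3 and 14.4 with them and 13523 and 14606 in heart muscle cells. Of 3 genes of the cardiac muscle list that could be compared, 1 was higher without Hox UMIs (Myl7) and 1 with them, Acta2, at 12.1 and 7.27 without and 136 and 67.6 CPM with them. Both paraxial mesoderm markers that could be compared, Aldh1a2 and Meox1, were higher without Hox UMIs, Meox1 at 36.2 and 43.6 against 6.35 and 2.5 CPM, as was 1 of 2 of intermediate mesoderm (Lhx1, 38.2 and 38.8 against 9.98 and 10.6). The part of these cell types in the differences was not tested.

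Members with 6 or more Hox UMIs carried more Hand1, Pitx1, Cdx2 and Bmp4. Among the marker lists, 3 of 3 markers of primitive streak that could be compared were higher with the Hox UMIs (Cdx2, Nkx1-2 and Fgf17), 2 of 3 of amnion and extraembryonic mesoderm (Hand1 and Bmp4), 1 of 1 of allantois (Pitx1) and 2 of 2 of endothelium (Kdr and Etv2), against 2.05% of all genes other than the 15 Hox genes. The part of these cell types in the differences was not tested. In the band without Hox UMIs 3 UMIs are 6.03 and 7.27 CPM, so levels up to there are at the limit of detection. Hand1, a basic helix-loop-helix factor of lateral and extraembryonic mesoderm, was at 327 and 322 CPM in tdTom+ and tdTom- members with the Hox UMIs and at 8.04 and 9.7 in those without. Pitx1 was at 351 and 328 against 6.03 and 0 CPM, Cdx2 at 289 and 332 against 4.02 and 2.42 and Cdx4 at 437 and 574 against 0 and 2.42. Bmp4, a ligand of posterior mesoderm, was at 132 and 148 against 8.04 and 12.1 CPM, its target Msx1 at 239.9 and 262 against 16.1 and 12.1, and the Wnt ligand Wnt5a at 190.5 and 185 against 28.1 and 21.8. Kdr (46.3 and 70.8 against 12.1 and 14.5) and Etv2 (79.8 and 55.1 against 6.03 and 4.85) had the same direction. The markers Osr1 and Hand2 were present in both bands, Osr1 at 149 and 167 against 105 and 80.01 CPM and Hand2 at 114 and 124 against 52.3 and 36.4, and the hedgehog receptor Ptch1 at 157 and 156 against 281 and 242. Cell by cell, 85 of the 91 tdTom+ members with Pitx1 also had Cdx2 (93.4%), as did 67 of 72 tdTom- members (93.1%). Cdx2 was found in 71.1% and 68.9% of all tdTom+ and tdTom- members, and in 23 of 61 (37.7%) and 24 of 60 (40%) of those without Pitx1.

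**Figure D3:**
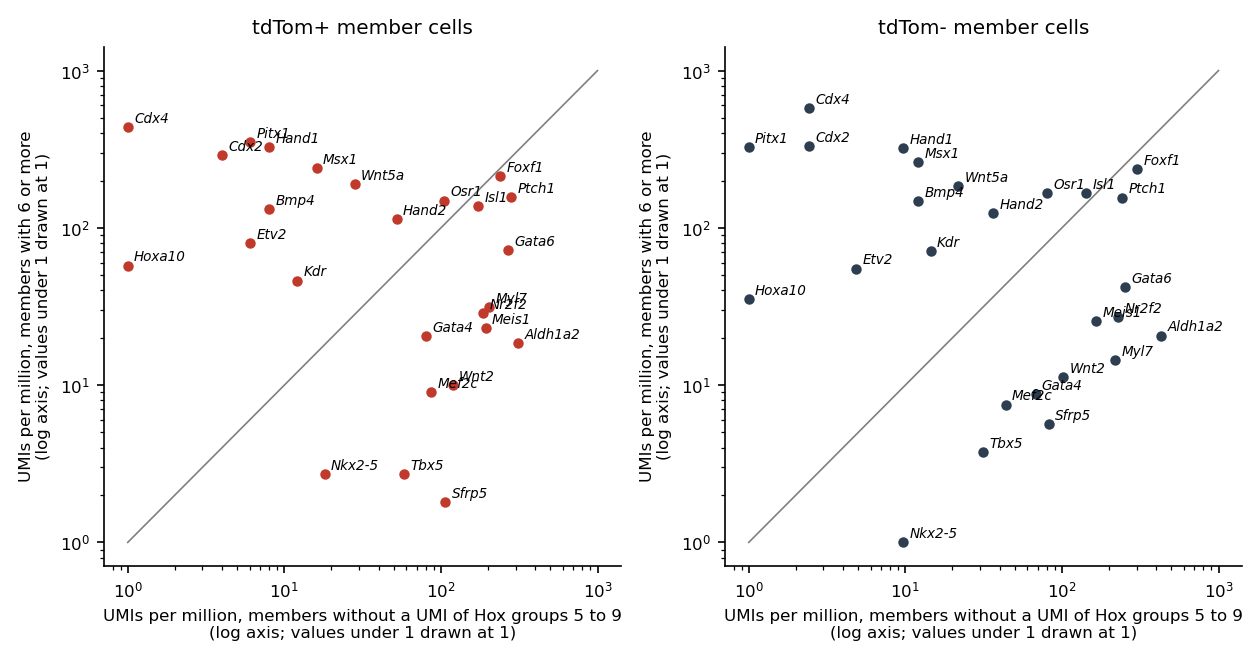
Summed level of 26 genes in members with 6 or more UMIs of Hox groups 5 to 9 (y axis) against members with 0 (x axis), in CPM on log axes, for tdTom+ (left, 106 against 26 cells) and tdTom- (right, 83 against 23 cells); the line marks equal levels and values under 1 are drawn at 1. Both fractions show Cdx2, Cdx4, Pitx1, Hand1 and Bmp4 far above the line and Aldh1a2, Tbx5, Wnt2 and Sfrp5 far below it, with Foxf1 and Isl1 near it.

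Promoter sequences of a gene from each band were read, to show them beside the caudal factors (Cdx2, Cdx4) and GATA factors (Gata4, Gata6) of the same band. Both genes were picked with their matches known, so the matches are no result about the bands. The sequences are those of RefSeq on GRCm38.p6, from 250 bases before to 50 after the transcript start, 5′ to 3′ on the strand of the gene. Capitals mark TTTATNG, a form of the caudal factor motif, in Hoxb8 (chr11:96281655-96281954, + strand), and AGATAA, a form of the GATA motif, in Sfrp5 (chr19:42202203-42202502, - strand), each searched on both strands.
Hoxb8: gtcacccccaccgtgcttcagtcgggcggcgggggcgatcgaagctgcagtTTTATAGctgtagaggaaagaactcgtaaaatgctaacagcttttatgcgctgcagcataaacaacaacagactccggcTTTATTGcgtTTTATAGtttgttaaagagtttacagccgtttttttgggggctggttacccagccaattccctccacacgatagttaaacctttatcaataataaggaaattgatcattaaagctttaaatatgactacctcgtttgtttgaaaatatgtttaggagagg
Sfrp5: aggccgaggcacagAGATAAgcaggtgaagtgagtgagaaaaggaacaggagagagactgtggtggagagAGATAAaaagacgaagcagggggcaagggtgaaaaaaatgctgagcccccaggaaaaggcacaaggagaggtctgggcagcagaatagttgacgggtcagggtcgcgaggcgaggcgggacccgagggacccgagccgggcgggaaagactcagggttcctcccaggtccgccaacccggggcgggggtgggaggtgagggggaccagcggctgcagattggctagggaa
Hoxb8 had 3 matches, which did not overlap, while 1 or more was found in 10.9% of all 32851 promoters of this length and 3 or more in 0.0639%. Of the 15 Hox genes of groups 5 to 9, 7 were matched to a promoter and 1 of these held the motif. Of the 155 genes higher in members with 6 or more Hox UMIs, 109 were matched and 14 (12.8%) held it. Sfrp5 had 2 matches of AGATAA, against 1 or more in 11.2% and 2 or more in 1.14% of all promoters. Of the 103 genes higher in members without Hox UMIs, 69 were matched and 9 (13%) held AGATAA. These are matches of letters and not measured binding.

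Genes of signalling pathways were read by role. Hedgehog ligands bind the receptor Ptch1, which releases Smo and activates Gli factors, and Ptch1 and Gli1 are themselves targets of the signal. Of the ligands, Shh was at 0.315 and 0 CPM, Ihh at 0.315 and 0 and Dhh at 0 and 0. The receptor Ptch1 was at 189 and 189 CPM in tdTom+ and tdTom- members, against 46.8 and 62.4 in Isl1-positive cells without Foxf1 and 115 and 98.6 in neural cells. Its log2 ratio to the Isl1-positive cells was 2.01 (1.74 to 2.30) and 1.60 (1.31 to 1.89), and that of Gli1 was 2.25 (1.14 to 3.54) and 1.25 (0.43 to 2.13). These were the 2 called of 7 tested hedgehog receptors and targets, whose median ratio was -0.08. Of all genes tested against the Isl1-positive cells, 1.27% were called higher and 1.17% lower in both libraries. Against Foxf1-positive cells without Isl1 the ratios of Ptch1 were 0.17 (0.04 to 0.31) and -0.06 (-0.21 to 0.09), and 0 of the 11 tested hedgehog receptors and targets were called in either direction. Of all genes tested there, 0.18% were called higher and 1.36% lower, so 0 of 11 is no result about the pathway.

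Of the BMP ligands, Bmp4 was at 107 and 107 CPM in tdTom+ and tdTom- members, Bmp7 at 21.1 and 14.8 and Bmp2 at 18.6 and 10.8. The receptor Bmpr1a was at 48.5 and 51.2 CPM. The targets Id1, Id2 and Msx1 were at 354 and 348, 405 and 483 and 179.9 and 184 CPM. Of 5 tested BMP targets only Id2 was called higher than in Foxf1-positive cells without Isl1, against 0.18% of all genes tested. Its log2 ratios were 1.01 (0.91 to 1.11) and 1.05 (0.94 to 1.15), close to the 2-fold limit. Of the inhibitors, Nog was at 8.82 and 8.39 CPM, Grem1 at 8.82 and 9.99 and Smad7 at 83.5 and 75.1. In the retinoic acid pathway Aldh1a2 was at 88.2 and 111 CPM, against 39 and 49.9 in Foxf1-positive cells without Isl1, the receptor Rarg was at 56.4 and 61.5 and the breakdown enzyme Cyp26a1 at 14.2 and 17.2.

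A comparison group was that with Foxf1 and no Isl1 UMI under the same other limits (646 tdTom+ and 522 tdTom- cells). It served for the difference between Foxf1-positive mesoderm with and without Isl1. The group was not matched on depth, with medians of 17213 and 15797 spliced UMIs, against 18961 and 18049 in members. Members had more Sfrp5, Aldh1a2, Tbx5 and Hoxa10 and less Postn, Acta2 and Col1a1. A gene was called where it had at least 50 UMIs over both groups, differed at least 2-fold, and had an interval of the log2 ratio that excluded 0. Of 8877 genes tested in both libraries, 16 (0.18%) were called higher in members in both and 121 (1.36%) lower, and 0 in opposite directions. Isl1 itself is among the former through the rule. Of the 27 second heart field genes outside the rule, 19 were tested, 3 were higher (Sfrp5, Aldh1a2 and Tbx5) and 0 lower, with a median log2 ratio over both libraries of 0.55 against -0.00086 for all genes tested. Of the 14 genes of mesenchymal state, 3 were lower (Snai2, Col1a1 and Col3a1) and 0 higher, and of the 5 markers of amnion and extraembryonic mesoderm 3 were lower (Postn, Ahnak and Tdo2). Of 4 tested proepicardium genes 2 were lower (Upk3b and Mab21l2), of 4 epithelial genes 1 (Krt19), and of 24 tested cell cycle genes 0 were called. Of 3 endothelial markers 1 was lower (Tek), of 4 of paraxial mesoderm 1 was higher (Aldh1a2), and of 7 genes of the cardiac muscle list 2 were lower (Acta2 and Tagln).

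Sfrp5 was at 22.4 and 23.2 CPM in tdTom+ and tdTom- members and at 5.22 and 5.43 in Foxf1-positive cells without Isl1, with log2 ratios of 2.10 (1.58 to 2.62) and 2.09 (1.52 to 2.68). Neural cells held 31.4 and 22.9 CPM of it. Hoxa10 was at 40.6 and 26.4 against 11.8 and 7.8 CPM (log2 ratios 1.78 and 1.76). Amot, a junction protein of the Hippo pathway, was at 231 and 249.8 against 97.2 and 78.2 CPM (1.25 and 1.67). Arg1, the urea cycle arginase, had ratios of 1.11 and 1.08, and Nr2f1, Dach1 and Igfbp5 of 1.09 and 1.31, 1.12 and 1.32 and 1.47 and 1.18. These genes came from both ends of the Hox range, with Amot and Hoxa10 higher in members with 6 or more Hox UMIs and Sfrp5, Aldh1a2, Arg1, Nr2f1, Dach1 and Igfbp5 in those with 0. With each cell thinned to 5000 UMIs the ratios of Dach1 were 0.30 in tdTom+ and 1.01 in tdTom- cells and those of Sfrp5 2.90 and 1.21.

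Among the genes lower in members, Postn, a matrix protein, was at 1.89 and 1.6 CPM in members and 30.04 and 47.9 in Foxf1-positive cells without Isl1, with log2 ratios of -3.99 (-5.45 to -2.85) and -4.91 (-6.79 to -3.54). Tdo2, the enzyme that opens the tryptophan ring, was at 9.45 and 13.2 against 79.5 and 110.0 CPM (-3.07 and -3.06). Acta2, smooth muscle actin, was at 107 and 76.7 against 536 and 619 CPM (-2.32 and -3.01), and Tagln, another smooth muscle protein, at 44.7 and 13.2 against 224 and 154. The ratios of the proteoglycan Lum were -2.70 and -6.53, those of Wisp1, a secreted CCN family protein, -3.57 and -3.68, and those of the receptor Tek -4.48 and -4.02 (-2.55 and -2.17 with unspliced UMIs added). Cryab, Sdpr, Creb3l1 and Mab21l2 were also lower in both libraries, with ratios between -2.91 and -5.32. The shared genes Foxf1 (215 and 248 against 218 and 239 CPM), Hand2 (102 and 95.1 against 93.2 and 113) and Gata6 (118 and 102 against 81.1 and 78) were not called. The Foxf1-positive cells without Isl1 held 583 and 687 CPM of the 5 amnion and extraembryonic markers, against 366 and 370.1 in members, and the part of these cells in the ratios was not tested.

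**Figure D4:**
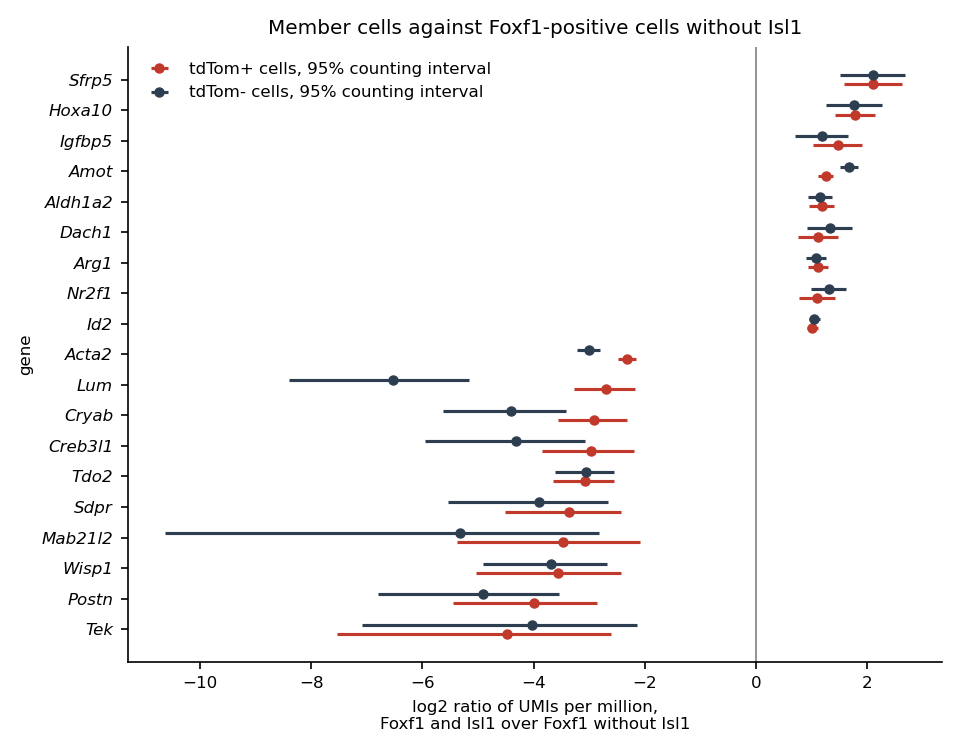
Log2 ratio of summed CPM in members over Foxf1-positive cells without Isl1 (x axis) for the 19 genes outside the rule with the strongest bound in either direction (y axis), in tdTom+ (red) and tdTom- (dark) cells with 95% counting intervals. The genes were picked for bounds on the same side of 0 in both libraries, so that agreement is set by the choice. Sfrp5 lies at 2.10 and 2.09 on the higher and Postn at -3.99 and -4.91 on the lower side.

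Set against cells with Isl1 and no Foxf1 UMI (166 tdTom+ and 129 tdTom- cells), the members had less Tbx1, Fgf8, Nkx2-5 and Mef2c and more RNA of Hox groups 5 to 9. Of 6920 genes tested, 88 (1.27%) were higher in members in both libraries, 81 (1.17%) lower and 2 called in opposite directions. Foxf1 is among the former through the rule. Of the 19 second heart field genes tested, 10 were lower and 3 higher (Osr1, Gata4 and Wnt5a). Tbx1, the T-box factor of pharyngeal and anterior heart field mesoderm, was at 14.5 and 4.4 CPM in members and 111 and 136 in the Isl1-positive cells, with log2 ratios of -2.93 (-3.41 to -2.48) and -4.95 (-5.97 to -4.09). The growth factor Fgf8 was at 25.5 and 14 against 193 and 202 CPM, Nkx2-5 at 5.99 and 4.0 against 69.8 and 45.1 and Mef2c at 23.9 and 17.2 against 68.7 and 45.1. Tlx1, the spleen homeobox gene, was at 3.15 and 0.40 against 65.4 and 78.8 CPM. In the other direction, 10 of the 10 tested Hox genes of groups 5 to 9 were higher in members, with a median log2 ratio of 2.2. Osr1 had ratios of 1.35 and 1.58 and Hand1 of 2.60 and 2.25, while Hand2 was at 90.3 and 76.8 CPM in the Isl1-positive cells and was not called. Markers of other cell types differed too. Of 3 tested markers of paraxial mesoderm 2 were lower in members, Meox1 with log2 ratios of -1.91 and -1.98 and Tcf15 with -2.11 and -3.28, and 2 of 2 of primitive streak were higher, Cdx2 with 2.76 and 2.24 and Nkx1-2 with 3.01 and 3.24. Also higher were 1 of 1 of allantois (Pitx1, 2.97 and 2.35), 1 of 1 of neural crest (Ets1, 1.76 and 2.10) and 1 of 2 of amnion and extraembryonic mesoderm (Hand1), and lower were 1 of 2 of endothelium (Etv2, -1.14 and -1.03) and 1 of 4 of cardiac muscle (Myl4, -2.79 and -2.23). Their part in the differences was not tested.

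Against the cells with Foxf1 and Tbx4 (403 tdTom+ and 193 tdTom- cells), which carry genes of the allantois, 125 of 7661 genes (1.63%) were higher in members in both libraries and 227 (2.96%) lower, Tbx4 through the rule. Osr1 had log2 ratios of 3.02 (2.74 to 3.31) and 3.12 (2.70 to 3.56) and Aldh1a2 of 2.81 and 1.92, and 7 of 8 tested Hox genes of groups 1 to 4 were higher. Lower in members were the posterior genes Hoxa11 (-2.27 and -2.20) and Hoxa13 (-2.75 and -1.71), the T-box genes Tbx20 (-2.23 and -2.77) and Tbx2 (-2.80 and -2.71), and Snai1, a factor of mesenchymal transition (-1.67 and -1.66). Of the 20 tested regulators of splanchnic and lateral plate mesoderm 3 were higher (Osr1, Meis1 and Nr2f2) and 6 lower (Gata4, Gata5, Wnt2, Tbx20, Prrx2 and Twist1). Markers of other cell types differed as well, with 2 of 2 tested of intermediate mesoderm higher in members (Osr1 and Lhx1), 1 of 3 of paraxial mesoderm higher (Aldh1a2), 1 of 4 of cardiac muscle higher (Myl7) and 1 lower (Actc1), 3 of 3 of allantois lower (Pitx1, Hoxa11 and Hoxa13) and 1 of 3 of amnion and extraembryonic mesoderm lower (Ahnak). Their part in the differences was not tested. Isl1 was at 79 and 86.2 CPM in the Tbx4-positive cells, a gene whose level the rule sets in members. Against heart muscle cells (376 and 237) 263 of 7885 genes (3.34%) were higher in members and 571 (7.24%) lower, and against all other cells 124 of 13486 (0.919%) were higher and 567 (4.2%) lower. These counts hold 1 and 1 genes of the rule against heart muscle cells, and 2 and 6 against all other cells. Of 19 tested regulators of splanchnic and lateral plate mesoderm outside the rule, 4 were higher in members than in heart muscle cells (Osr1, Hand1, Prrx1 and Twist1). More were lower, 9 of the 19, with Gata4, Gata6 and Tbx5 among them.

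The comparison of the fractions asks whether members without Gata1, a factor of blood cells, differed from the wildtype members. Gata1 was at 0.315 and 2.8 CPM in tdTom+ and tdTom- members, near the limit of detection, and a frameshift need not change its 3′ counts, so this level does not check the labels. Of 7379 genes tested, 26 (0.352%) were called higher in tdTom+ members and 46 (0.623%) lower. The latter include 2 globin genes that the rule capped (Hba-x and Hbb-y), which leaves 44. Of the 20 tested regulators of splanchnic and lateral plate mesoderm 0 were called in either direction at this depth, with a median log2 ratio of 0.08, against -0.03 over all genes. Of the 11 tested Hox genes of groups 5 to 9 0 were called (median -0.20). Of the 18 tested second heart field genes 2 were higher in tdTom+ members (Tbx1 and Foxc2) and 0 lower (median 0.31). Neither call held under every alternative. Without the tdTom+ member with most Foxc2 UMIs (12 of 49) its log2 ratio was 0.89 and it was not called, and Tbx1 was not called with limits of 1 or 3 UMIs on Foxf1 and Isl1. Of 6 tested genes of the cardiac muscle list 1 was higher, Tagln, which is also a smooth muscle gene (median 0.46). Of the neural markers Sox2 was the 1 tested and was lower in tdTom+ members, with a log2 ratio of -1.43 (-2.35 to -0.56) against -1.42 in all other cells. The log2 ratio of tdTom+ over tdTom- was 0.13 (-0.08 to 0.34) for Osr1, 0.10 (-0.15 to 0.35) for Hand2, 0.02 (-0.13 to 0.18) for Hand1, 0.20 (-0.03 to 0.44) for Gata6 and -0.0039 (-0.24 to 0.23) for Bmp4.

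Several of the genes with the strongest bounds are imprinted, and these differed in the same direction in all other cells. Of the 72 genes called, 9 went the other way in all other cells, with an interval that excluded 0. Cdkn1c, a maternally expressed cell cycle inhibitor, was at 3.15 and 472 CPM in tdTom+ and tdTom- members, a log2 ratio of -7.23 (-8.29 to -6.34), against -6.14 in all other cells. Grb10, an imprinted growth factor receptor adapter, had -6.17 (-6.91 to -5.52) against -5.31, Phlda2 -3.41 (-3.57 to -3.25) against -2.60 and Igf2r -2.47 (-2.81 to -2.14) against -2.20 (-0.91 in members with unspliced UMIs added). Among paternally expressed genes, Mest had 1.05 (0.97 to 1.12) against 1.07 and Peg3 0.94 (0.87 to 1.01) against 1.21. The injected line was male, while no source used here gives the sex of the hosts. Xist, the RNA of the inactive X chromosome of female cells, had -6.25 (-7.32 to -5.36) against -6.39. Hba-x and Hbb-y, globin genes that the rule capped, are given only as a description, with -3.01 (-3.26 to -2.76) and -3.16 (-3.66 to -2.70), beside -3.57 and -3.96 in neural cells, and the part of free globin RNA was not tested. Erdr1 had 1.81 (1.56 to 2.06) against 1.49, H13 -1.51 (-1.91 to -1.13) against -1.40 and Pgrmc2, a heme-binding membrane protein, -1.29 (-1.58 to -1.004) against -0.88. Eif2s3y, a gene of the Y chromosome, had 1.09 (0.68 to 1.53) against 1.00. The cell line, the sort, the library and the loss of Gata1 cannot be told apart in any of these values.

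Of the tdTom+ members, 1 had Xist UMIs, although the injected line was male. It stood apart from the rest in Xist and Grb10, as was seen after the comparison was made. It held all 10 Xist UMIs of the group and 9 of its 19 Grb10 UMIs, while 67 of 132 tdTom- members had Xist. Of other imprinted genes it held 0 UMIs of Cdkn1c, 2 of Phlda2 and 2 of Igf2r, while the other tdTom+ members together held 10, 346 and 92. Without this cell Grb10 had a log2 ratio of -7.09 (-8.15 to -6.20), Xist was at 0 in tdTom+ members and at least 251-fold lower than in tdTom- members (against a floor of 3 UMIs over the group, while the counting interval ends at a log2 ratio of -7.67), and Phlda2 was at -3.40.

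Of the 20 genes with the strongest bounds, leaving aside Hba-x and Hbb-y, Tagln, Cdx1, Tbx1 and Mxd4 lay far from their values in all other cells. The make-up of the other cells differed between the libraries, as given above, and its part in these gaps was not tested. Cdkn1c, given above, lay nearly as far from its value there as Mxd4. Tagln was at 44.7 and 13.2 CPM in tdTom+ and tdTom- members, a log2 ratio of 1.76 (1.21 to 2.36) against 0.46 in all other cells, and in members with 6 or more Hox UMIs it was at 45.8 and 6.89 CPM, with 26 of 106 tdTom+ and 9 of 83 tdTom- cells positive. Cdx1, a caudal factor, was at 32.8 and 12.8 CPM, a ratio of 1.36 (0.77 to 1.98) against 0.07 in all other cells, and of 1.07 (0.44 to 1.73) in the members with 6 or more Hox UMIs. With the limits on Foxf1 and Isl1 set to 1 UMI its ratio was 0.19. Neural cells had 0.97 for this gene, and among its relatives Cdx2 had -0.09 (-0.26 to 0.07) in members. Mxd4, a MAX-binding repressor, had -1.69 (-2.40 to -1.01) against -0.59 in all other cells, and -1.51 (-2.44 to -0.63) in the members with 6 or more Hox UMIs.

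Tbx1 was at 14.5 and 4.4 CPM in tdTom+ and tdTom- members, a log2 ratio of 1.72 (0.75 to 2.82), against -0.03 in all other cells. It was carried by 16 of 152 tdTom+ and 3 of 132 tdTom- members, and 32 of its 46 tdTom+ UMIs lay in 10 cells without Hox UMIs, where the tdTom- library had 3 UMIs. Foxc2, a forkhead factor of the same mesoderm, had 1.27 (0.43 to 2.19) against -0.17, and 10 of the 16 tdTom+ members with Tbx1 had it too. The tdTom+ members with Tbx1 had Mef2c at 84.2 CPM and Fgf8 at 74, against 15.5 and 18.7 in those without. With the limits on Foxf1 and Isl1 set to 1 UMI the ratio of Tbx1 was 0.41 and with 3 UMIs 0.24, so the gene was not called under either.

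**Figure D5:**
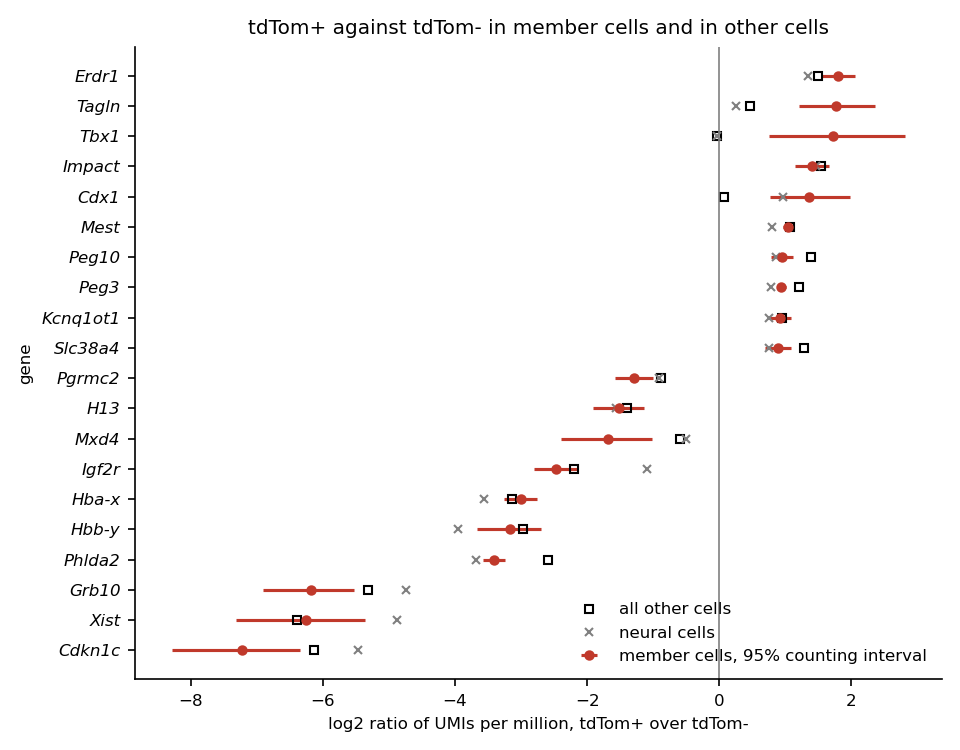
Log2 ratio of summed CPM, tdTom+ over tdTom- (x axis), for the 20 genes with the strongest bounds in members (y axis; Hba-x and Hbb-y were capped by the rule), in members (red, bars are 95% counting intervals), in all other cells (open squares) and in neural cells (crosses). The squares lie near the red points for most genes outside the rule, and apart from them for Tagln (1.76 against 0.46), Tbx1, Cdx1, Mxd4 and Cdkn1c. The other cells differ in make-up between the libraries.

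Unspliced UMIs, which the rule did not use, came from the same cells and are given as a description. They were 12.9% of all UMIs in tdTom+ and 13.6% in tdTom- members. Isl1 and Osr1 gave few, with 2.6% and 3.64% of the Isl1 UMIs and 3.66% and 4.17% of the Osr1 UMIs unspliced. Isl1 was at 25.5 and 38.1 CPM of unspliced UMIs in members, against 10.8 and 7.04 in Foxf1-positive cells that had no spliced Isl1 UMI, and 1.43 and 0.616 in neural cells. Cells picked for having no spliced Isl1 UMI thus held some unspliced Isl1 RNA, at a level between those of members and neural cells. Ptch1 was 48% and 52.3% unspliced, and Hoxa9 22.7% and 21.1%.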

How the data were processed

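Droplet-based RNA-seq was read from 1 tdTom+ and 1 tdTom- library. The authors mapped the reads with Cell Ranger 3.0.2 to mm10 (GRCm38) and called cells with emptyDrops. They filtered cells by total counts and mitochondrial share, identified doublets, and used velocyto to tell spliced and unspliced molecules apart. The tables the authors deposited hold these molecules as whole UMI counts that were not normalized. The mitochondrial percent of each cell comes from their deposited quality metrics and had a median of 1.96% in tdTom+ and 2.06% in tdTom- members. No further filter on cells was set, and called doublets were kept. The paper reports fewer cells in each fraction after its quality control and cell type assignment. Shares given here are thus of all cells in the deposited count tables. Columns of the authors' own annotation were not used here, and some genes of the lists are not reported here by name.

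The spliced UMIs of all cells in a group were added up and given as CPM. Total spliced UMIs were 167940767 and 157174026, in 29453 genes. Ratios have exact conditional (Clopper-Pearson) 95% intervals for counting error only. A gene was called with at least 50 UMIs over both groups (20 for the Hox bands), a ratio of at least 2-fold and an interval that excluded 0, and in comparisons of cell groups in both libraries. Named genes are the markers, the genes of the rule and of the lists, and the 10 genes per direction with the bound farthest from 0. Against Foxf1-positive cells without Isl1 this was the smaller bound over both libraries, which had to lie on the same side of 0. The members and lists were chosen with earlier results of these data known. The Hox bands, the split by Tbx1, the gene pairs and the removal of 1 cell with Xist or of the cell with most UMIs of a gene were chosen after seeing the data. Intervals were also tested on simulated data with known ratios. Alternatives changed the UMI limits, doublets, depth, minimum counts, denominator, cell weights, unspliced UMIs and free RNA. Python 3.11.15, numpy 2.4.6, scipy 1.17.1 and scanpy 1.11.5 were used.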

Additional observations from a re-analysis of the deposited data

Results flagged for a closer look

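Foxc2, a forkhead factor of pharyngeal and heart field mesoderm, was higher in tdTom+ than in tdTom- members, with a log2 ratio of 1.27 (0.43 to 2.19), while all other cells went the other way with -0.17 (-0.25 to -0.08). The difference between the members and the other cells was not tested, since there is 1 library per fraction. The other cells also differed in make-up between the libraries. The members held 49 Foxc2 UMIs in 22 tdTom+ cells, with up to 12 in 1 cell, and 16 in 15 tdTom- cells. Without the tdTom+ cell with 12 UMIs the log2 ratio was 0.89 (0.0064 to 1.83), and Foxc2 was not called.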

How the results depend on the processing

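Of 70 counts and shares under alternative settings, 30 moved beyond the tolerance (1.5 times for counts, the counting interval for shares). Counts and shares have no sign, so they could not reverse. Of 600 log2 ratios of the genes with the strongest bounds, 57 moved out of their interval and 0 reversed. These genes were picked for bounds far from 0 in the same data, so the lack of reversals is largely set by the choice. Ratios that had no finite value under a setting were left out of the 600. With limits of 1 UMI on Foxf1 and Isl1, members were 4.41% and 3.78% of the tdTom+ and tdTom- libraries, and with limits of 3 UMIs 0.546% and 0.53%. Genes called higher and lower in tdTom+ members numbered 69 and 102 with a minimum of 20 UMIs, 4 and 16 with 200, 13 and 29 with each cell thinned to 5000 UMIs, and 2 and 8 with the neural level subtracted, which left out genes whose neural level was above 0.5 of that in either group. Against Foxf1-positive cells without Isl1, 25 genes were higher and 145 lower with a minimum of 20 UMIs. With 200 UMIs 8 were higher and 48 lower, after thinning 8 and 59, and with the neural level subtracted 8 and 44. These settings test fewer or more genes or hold fewer UMIs by construction. Thinning also lowered the share of tdTom+ and tdTom- members with a UMI of Osr1 to 41.4% and 38.6% and of Hand2 to 32.9% and 39.4%. The shares with 0, 1 to 5 and 6 or more Hox UMIs became 27.6%, 48% and 24.3% in tdTom+ and 27.3%, 46.2% and 26.5% in tdTom- members. Tbx1 was then found in 4.61% of tdTom+ members. No paired analysis was possible because each fraction has 1 library and no result comes from a test.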

Other observations

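Pairs of genes were counted in single members, as a description chosen after the values were seen. Kdr and Etv2, which act together at the start of vessel formation, were both found in 24 of 152 tdTom+ and 19 of 132 tdTom- members. This was 43.6% and 40.4% of the members with Kdr, and 63.2% and 48.7% of those with Etv2. Of all members, 36.2% and 35.6% had Kdr. Aldh1a2 and Hand1 were both found in 27 and 18 members. Aldh1a2 was present in 24.8% and 20.9% of the members with Hand1 and in 72.1% and 80.4% of those without. Osr1 and Hand2 were both found in 79 and 54 members and neither in 12 and 16.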
